A study of Mus musculus with 7 samples.

Results

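De novo lipogenesis is the making of fatty acids from carbohydrate carbon, and this account follows the 10 mouse genes Acly, Acaca, Acacb, Fasn, Scd1, Scd2, Elovl6, Srebf1, Mlxipl and Thrsp, which encode its enzymes and their transcriptional regulators. They were chosen by name, by matching each symbol to its Entrez identifier in a table of 29517 genes, and all 10 matched and passed the filter on low counts. The samples were inguinal white adipose tissue, the subcutaneous fat pad of the groin, from C57BL/6 mice that were untreated and ate a standard chow diet. There were 3 libraries from TM4SF5-/- animals (KO) and 4 from wild-type animals (WT), and the labels give neither the sex or age of the animals nor the part of Tm4sf5 that was deleted.

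In this pathway, citrate leaves the mitochondrion and is split by ATP citrate lyase (Acly) into acetyl-CoA, which the acetyl-CoA carboxylases (Acaca, Acacb) turn into malonyl-CoA. Fatty acid synthase (Fasn) builds palmitate from these units, Elovl6 lengthens it to stearate, and the stearoyl-CoA desaturases (Scd1, Scd2) add a double bond. The transcription factors SREBP1 (Srebf1), driven by insulin, and ChREBP (Mlxipl), driven by glucose, raise the genes of these enzymes in liver and fat, and adipocytes are a main site of the pathway in mice.

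The start regions of Fasn, Acly and Mlxipl are shown because Fasn had 3 other genes with a profile close to its own, Acly had a different profile, and Mlxipl is the regulator with the most kinds of motif. Sequences are the 250 bases before an annotated start, from RefSeq on GRCm38.p6 (mm10), written 5′ to 3′ on the strand of the gene. Capitals mark matches on either strand to an SRE motif (TCACNCCAC), an E-box (CACGTG), an NF-Y box (CCAAT), a GC box (GGGCGG) or a nuclear receptor half-site (AGGTCA). Mlxipl has 2 starts in the table. The upstream one is at chr5:135089640-135089889 and the downstream one at chr5:135106641-135106890, both on the plus strand. The Fasn window is chr11:120824548-120824797 and the Acly window chr11:100528001-100528250, both on the minus strand. The RefSeq span of Fasn reaches to 120825166, so its window lies inside the gene, before an internal start.
Fasn: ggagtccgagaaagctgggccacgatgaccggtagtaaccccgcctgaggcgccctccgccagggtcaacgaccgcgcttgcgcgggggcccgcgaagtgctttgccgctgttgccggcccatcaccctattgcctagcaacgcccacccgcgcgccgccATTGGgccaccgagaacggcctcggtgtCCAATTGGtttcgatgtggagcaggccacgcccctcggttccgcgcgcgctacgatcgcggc
Acly: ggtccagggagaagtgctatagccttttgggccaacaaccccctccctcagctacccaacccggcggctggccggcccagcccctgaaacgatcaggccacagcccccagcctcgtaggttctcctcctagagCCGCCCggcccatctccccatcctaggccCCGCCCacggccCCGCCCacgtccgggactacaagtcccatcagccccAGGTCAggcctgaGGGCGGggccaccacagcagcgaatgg
Mlxipl upstream start: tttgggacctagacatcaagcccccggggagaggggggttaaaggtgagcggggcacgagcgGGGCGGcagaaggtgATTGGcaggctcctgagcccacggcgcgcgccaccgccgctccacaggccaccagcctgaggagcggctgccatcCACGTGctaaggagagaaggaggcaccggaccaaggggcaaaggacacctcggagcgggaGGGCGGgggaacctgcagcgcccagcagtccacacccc
Mlxipl downstream start: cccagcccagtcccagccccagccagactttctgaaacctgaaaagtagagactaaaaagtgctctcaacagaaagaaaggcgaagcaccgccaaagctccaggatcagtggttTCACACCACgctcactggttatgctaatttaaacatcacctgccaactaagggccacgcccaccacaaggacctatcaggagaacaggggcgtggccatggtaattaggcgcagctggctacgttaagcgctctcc
The Fasn window held 3 matches to the NF-Y box, of which a pair overlaps on opposite strands in the run of capitals nearest the start. The Acly window held 4 GC boxes and 1 nuclear receptor half-site. Of the windows of the 10 genes, those of Mlxipl were the only ones with an E-box, which lay at the upstream start, or with an SRE motif, which lay at the downstream start. Across all 32851 windows of the table, 33.8% held an NF-Y box, 32.7% a GC box, 14.0% a nuclear receptor half-site, 6.02% an E-box and 1.05% an SRE motif. Among the 10 genes, 8 had a window, 11 windows in all, and 6 of these held an NF-Y box, 4 a GC box and 2 a nuclear receptor half-site. These matches describe letters and not bound sites, and Scd1 and Scd2 are named only.

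Values are read counts per gene, given as CPM, that is, scaled to 1e6 counts a library, with library sizes adjusted by TMM, a trimmed mean of ratios between libraries. Library totals ran from 49775077 to 50704542 counts in KO and from 55717495 to 60241436 in WT, so counting error is small for every gene named here except Tm4sf5 and Elovl4. Tm4sf5, the targeted gene, had 7, 6 and 17 counts in KO 1 to KO 3, against 33, 45, 47 and 20 in WT 1 to WT 4, so KO 3 and WT 4 were not told apart by it. As CPM, KO 3 at 0.353 lay above WT 4 at 0.323, and the difference had an edgeR adjusted p = 0.177. The Y-linked gene Ddx3y was present in every library, at 71.9 to 107 CPM in KO and 82.0 to 108 CPM in WT. Several marker lists differed between the groups. The 12 white adipocyte markers were all detected and summed to 29900 to 41100 CPM in KO and 16900 to 25200 CPM in WT, with 6 of 12 higher at an unadjusted p under 0.05. The 10 macrophage markers summed to 280 to 380 CPM in KO and 569 to 1560 CPM in WT, with 10 of 10 lower at that p. The 8 skeletal muscle markers were high in WT 2 and WT 4, at 557 and 1170 CPM, against 39.4 to 198 CPM in the other 5 libraries. Brown and beige adipocyte markers summed to 818 to 2750 CPM in KO and 307 to 1130 CPM in WT, which overlapped. All 10 of them had a log2 change above 0 (median 1.5), and 5 of 10 were higher and 0 lower at that p. Across all genes tested, 12.3% were higher and 9.51% lower at that p. Skin and sebaceous gland markers summed to 569 to 855 CPM in KO and 290 to 535 CPM in WT, mostly from Mgst1, and of their 5 tested genes 2 were higher and 1 lower at that p (median 0.18 on the log2 scale). The sums of 3 further lists also overlapped, at 362 to 1030 CPM in KO and 458 to 1630 CPM in WT for lymph node, 6.32 to 28.5 CPM in KO and 7.92 to 17.7 CPM in WT for mammary epithelium, and 793 to 989 CPM in KO and 407 to 1630 CPM in WT for endothelium and progenitors. Mitochondrially encoded genes took 16.1% to 19.0% of counts in KO and 8.07% to 12.1% in WT. The part of these differences in the values below was not tested, and in bulk tissue fewer cells of a type and less RNA per cell cannot be told apart.

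Most of the 10 genes had higher mean levels in KO fat, but their ranges overlapped WT for all except Acacb. On the log2 scale, 8 of 10 genes had a KO over WT change above 0, with a median of 0.48, against 46.9% of the 19185 genes tested and a median of -0.04. With total counts alone as the scaling, 7 of 10 were above 0 (median 0.14, all genes -0.35), and with libraries scaled to white adipocyte markers 3 of 10 were (median -0.22, all genes -0.66). Among all genes with an unadjusted p under 0.05, 56.4% were higher in KO with TMM, 12.5% with total counts alone and 1.13% with adipocyte marker scaling. With edgeR's quasi-likelihood test 0 of 10 passed an adjusted p of 0.05, as did 0% of all genes. At an unadjusted p under 0.05 there were 2 of 10 higher, Acacb and Elovl6, against 12.3% of all genes, and 0 lower, against 9.51%. The KO libraries lay wholly above the WT libraries for 1 of 10 genes, Acacb, against 11.4% of all genes, and wholly below them for 0 of 10, against 8.92%. DESeq2 called 1 of the 10 higher, Acacb (adjusted p = 0.0199), against 5.54% of its genes, and 0 lower, against 4.77%. Counts of 2 and 1 genes among 10 are close to the shares over all genes.

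**Figure D1:**
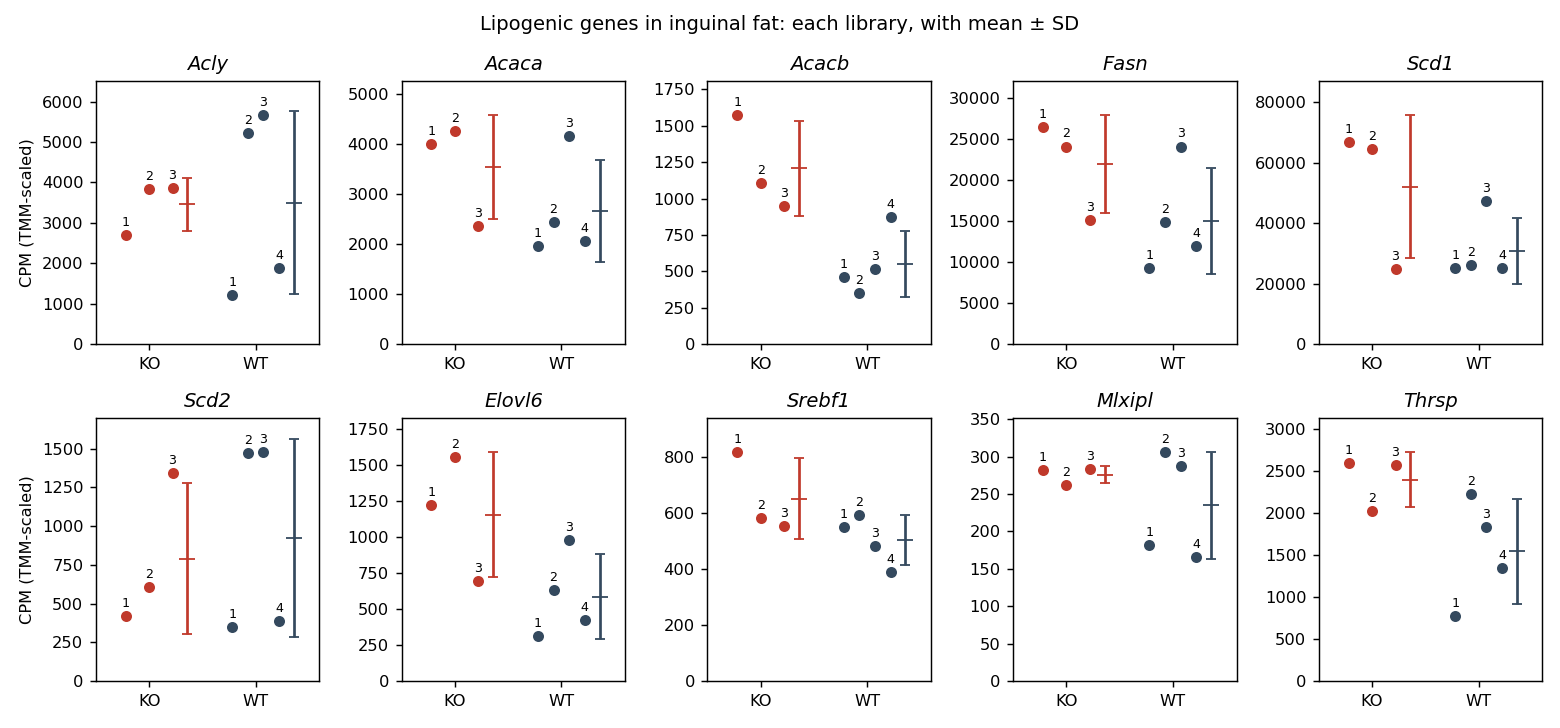
CPM of each of the 10 genes (vertical axes, each from 0) in the KO libraries (red, left) and WT libraries (dark, right), with the replicate number above each point and the mean ± SD beside each group. Acacb is the gene whose KO points, from 945.5 to 1571 CPM, all lie above its WT points, while Acly and Scd2 spread most widely among WT.

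Acly, whose enzyme supplies cytosolic acetyl-CoA, did not separate the genotypes. It had 2705, 3827 and 3862 CPM in KO 1 to KO 3, against 1218, 5232, 5659 and 1896 CPM in WT 1 to WT 4. The 3 KO libraries fell between a low and a high pair of WT libraries. Means were 3464 ± 658 CPM in KO (SD, n = 3) and 3501 ± 2270 CPM in WT (SD, n = 4), and the log2 fold change was -0.02 (95% interval -1.25 to 1.22, adjusted p = 0.99 by edgeR). The WT libraries alone differed by 4.65-fold between lowest and highest.

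The acetyl-CoA carboxylases make malonyl-CoA in different places. The product of Acaca acts in the cytosol and feeds Fasn, while that of Acacb sits at the outer mitochondrial membrane, where malonyl-CoA inhibits fatty acid entry through CPT1. Acacb had 1571, 1108 and 945.5 CPM in KO 1 to KO 3, against 463.7, 353.2, 514.7 and 873.5 CPM in WT 1 to WT 4. Every KO library was above every WT library, with WT 4 nearest to KO 3. Means were 1208 ± 325 CPM in KO (SD, n = 3) and 551.3 ± 225 CPM in WT (SD, n = 4), a 2.19-fold difference with a log2 fold change of 1.13 (SE 0.33, 95% interval 0.37 to 1.89). Its unadjusted p was 0.00869 and its edgeR adjusted p = 0.121. Relative to white adipocyte markers the log2 fold change of Acacb was 0.42 (SE 0.33, adjusted p = 0.335 by edgeR), where the median of all genes was -0.66, and with that scaling or total counts alone the groups overlapped. Acacb is also a muscle enzyme. Of the libraries with high muscle marker sums, WT 4 (1170 CPM) had the highest Acacb in WT and WT 2 (557 CPM) the lowest of all 7. WT 4 also had the highest brown and beige marker sum in WT, at 1130 CPM. The part of either tissue in these values was not tested. Without WT 4 the log2 fold change was 1.44 (adjusted p = 0.082 by edgeR).

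Acaca had 3995, 4258 and 2363 CPM in KO 1 to KO 3, against 1962, 2442, 4156 and 2068 CPM in WT 1 to WT 4. KO 3 was within the WT range, and WT 3 stood with KO 1 and KO 2. The log2 fold change of Acaca was 0.41 (SE 0.35, 95% interval -0.38 to 1.21, adjusted p = 0.51 by edgeR). Acaca shares bases on the opposite strand with the predicted protein-coding gene Gm11437, and the counting rule is not given in the sources used here, so some of its reads may belong to that gene.

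Fasn, the synthase that carries out every step of palmitate synthesis on 1 polypeptide, had 26530, 24110 and 15190 CPM in KO 1 to KO 3, against 9294, 14850, 24110 and 11920 CPM in WT 1 to WT 4. Means were 21940 ± 5970 CPM in KO (SD, n = 3) and 15040 ± 6460 CPM in WT (SD, n = 4), and the log2 fold change was 0.54 (95% interval -0.42 to 1.51, adjusted p = 0.476 by edgeR). As for Acaca, KO 1, KO 2 and WT 3 were high and the other 4 libraries lower. With libraries scaled to white adipocyte markers the log2 fold change of Acaca was -0.27 and that of Fasn -0.16.

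Elovl6, which lengthens palmitate, had 1220, 1554 and 691.6 CPM in KO 1 to KO 3, against 313.6, 629.3, 978.8 and 423.3 CPM in WT 1 to WT 4. KO 1 and KO 2 were above all WT libraries, and KO 3 was below WT 3. Means were 1155 ± 435 CPM in KO (SD, n = 3) and 586.2 ± 293 CPM in WT (SD, n = 4), a 1.97-fold difference. The log2 fold change of Elovl6 was 0.98 (SE 0.42, 95% interval 0.01 to 1.95), with an unadjusted p of 0.0485 and an edgeR adjusted p = 0.226. The unadjusted call was lost without KO 1, KO 2, WT 1, WT 2 or WT 4, without WT 2 and WT 4 together, with total counts alone, with adipocyte marker scaling and with the replicate numbers as a block.

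The stearoyl-CoA desaturase genes had different patterns over the libraries. Scd1, the main form in fat and liver, had 66800, 64660 and 24950 CPM in KO 1 to KO 3, against 25140, 26180, 47290 and 25060 CPM in WT 1 to WT 4. KO 3 was the lowest of the 7 libraries and KO 1 and KO 2 the highest. Scd1 took 2.38% to 5.79% of all counts in KO libraries and 2.65% to 5.07% in WT libraries. Its log2 fold change was 0.75 (SE 0.49, 95% interval -0.37 to 1.88, adjusted p = 0.397 by edgeR). Without KO 3 it was 1.11, and Scd1 then passed an unadjusted p of 0.05.

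Scd2, the form most often described in brain and in preadipocytes, had 421.8, 608.3 and 1342 CPM in KO 1 to KO 3, against 349.8, 1473, 1479 and 387.2 CPM in WT 1 to WT 4. KO 3, WT 2 and WT 3 were high and the other 4 libraries low, so the KO library lowest for Scd1 was the highest for Scd2. The log2 fold change of Scd2 was -0.22 (SE 0.63, 95% interval -1.68 to 1.24, adjusted p = 0.86 by edgeR). The Scd genes are close paralogs that lie together on chromosome 19, Scd2 from 44293676 to 44306864 and Scd1 from 44394450 to 44407709 of mm10. Reads shared between them may have been split by the authors' counting.

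Srebf1 encodes SREBP1, which is cut from a membrane-bound precursor before it enters the nucleus. It had 818.7, 581.7 and 554.9 CPM in KO 1 to KO 3, against 548.9, 595.0, 481.6 and 390.9 CPM in WT 1 to WT 4. KO 1 stood above the rest and WT 4 below, and the other 5 libraries lay close together. Its log2 fold change was 0.37 (SE 0.21, 95% interval -0.12 to 0.87, adjusted p = 0.347 by edgeR), and -0.30 with adipocyte marker scaling. The counts do not separate the SREBP1a and SREBP1c messages.

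Mlxipl, the glucose-responsive factor, had 281.6, 262.4 and 283.8 CPM in KO 1 to KO 3, against 181.7, 306.0, 286.7 and 165.2 CPM in WT 1 to WT 4. The KO libraries nearly coincided, between WT 1 and WT 4 on the low side and WT 2 and WT 3 on the high side. Its log2 fold change was 0.23 (SE 0.24, 95% interval -0.32 to 0.79, adjusted p = 0.596 by edgeR), but -0.09 with total counts alone and -0.42 with adipocyte marker scaling. Counts per gene join the messages from both starts shown above, so the shorter ChREBP-beta form was not measured on its own.

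Thrsp encodes Spot 14, a small protein that responds to thyroid hormone and carbohydrate and promotes lipogenesis. It had 2597, 2019 and 2576 CPM in KO 1 to KO 3, against 774.1, 2220, 1838 and 1344 CPM in WT 1 to WT 4. KO 1 and KO 3 were above all WT libraries and KO 2 was below WT 2. Means were 2397 ± 328 CPM in KO (SD, n = 3) and 1544 ± 626 CPM in WT (SD, n = 4), with a log2 fold change of 0.63 (SE 0.35, 95% interval -0.16 to 1.43, adjusted p = 0.321 by edgeR), but -0.05 with adipocyte marker scaling. Without WT 2 Thrsp passed an unadjusted p of 0.05.

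By RefSeq on mm10, the other genes lie at chr11:100476352-100528000 (Acly), chr11:84129635-84401651 (Acaca), chr11:120805958-120825166 (Fasn), chr11:60199084-60224186 (Srebf1), chr5:114146321-114250761 (Acacb), chr5:135089890-135139768 (Mlxipl), chr3:129532386-129638495 (Elovl6) and chr7:97412933-97417550 (Thrsp). In GENCODE M21, Fasn, Scd1 and Thrsp overlap no other annotated gene. Srebf1 shares 109 bases with Rai1 and Mlxipl 884 bases with the antisense gene Gm43500, both on the opposite strand.

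Levels between genes were compared only per kilobase of exon, as CPM divided by the exonic length in GENCODE M21. Scd1 led with 10800 CPM per kb in KO and 6400 in WT, followed by Fasn with 2180 in KO and 1500 in WT, and by Thrsp with 1880 in KO and 1210 in WT. Acly had 752 CPM per kb in KO and 759 in WT, and Acaca 372 in KO and 279 in WT. The others were lower on this scale, with Mlxipl at 76.2 CPM per kb in KO and 64.9 in WT. Acaca stood above Acacb in both genotypes, as Acacb had 137 CPM per kb in KO and 62.7 in WT. Together the 10 genes took 8.53%, 9.23% and 5.03% of all counts in KO 1 to KO 3, and 4.25%, 6.29%, 9.31% and 4.96% in WT 1 to WT 4. WT 3 thus held the largest share of the 7 libraries.

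The spread among libraries of 1 genotype was wide for these genes. The SD of log2 CPM among WT libraries was 1.16 for Scd2, 1.10 for Acly, 0.71 for Elovl6 and 0.67 for Thrsp, where the median of the 10098 genes with a mean of at least 10 CPM was 0.21. Of those genes, 97.6% had a smaller WT spread than Scd2 and 97.3% a smaller one than Acly. Srebf1 was the steadiest of the 10 in WT, at 0.27, with 62.1% of genes below it. Among KO libraries the SD was 0.85 for Scd2 and 0.81 for Scd1, against 0.06 for Mlxipl, where the median gene had 0.25. Only 4.81% of genes had a smaller KO spread than Mlxipl.

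Part of that spread followed the same libraries from gene to gene. WT 1 was the lowest of the 7 libraries for 6 of 10 genes, and WT 1 and WT 4 were the lowest pair for 7 of 10, namely Acly, Acaca, Fasn, Scd2, Elovl6, Mlxipl and Thrsp. Of the genes with a mean of at least 10 CPM, 7.39% had WT 1 and WT 4 as their lowest pair. This order was noticed after the values were seen. The white adipocyte markers summed to 25200 CPM in WT 1 and 22300 in WT 4, against 16900 in WT 2 and 19700 in WT 3. Single markers differed from each other. Lep had 217.7 and 64.9 CPM in WT 1 and WT 4, against 520 and 496 in WT 2 and WT 3. Cfd had 4700 and 5242 CPM in WT 1 and WT 4, against 3259 and 2247 in WT 2 and WT 3. The part of adipocyte content in this order was not tested. Macrophage markers were at 1560 CPM in WT 1 and 569 in WT 4, the highest and lowest sums in WT.

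To compare shapes, each gene's log2 CPM was centred on its own mean over the 7 libraries, and the root-mean-square (RMS) difference between profiles was taken. Acaca and Fasn were the closest pair of 45, at 0.15, followed by Acaca and Scd1 at 0.23, Fasn and Scd1 at 0.27 and Fasn and Elovl6 at 0.28. These 4 genes were high in KO 1, KO 2 and WT 3. Scd2 was farthest from Fasn, at 0.90, followed by Acacb at 0.64 and Acly at 0.57, and Acacb and Scd2 were the widest pair of all, at 1.35. The 5 non-member genes closest to the mean profile of the 10 were Adk (RMS 0.10), Pcx (0.11), Dgat2 (0.12), Pygl (0.13) and Slc25a35 (0.13), out of 9806 candidates over 7 libraries. Pcx encodes pyruvate carboxylase, which supplies oxaloacetate for citrate, and Dgat2 the last enzyme of triglyceride synthesis. Dgat2 had 1939, 2083 and 1962 CPM in KO 1 to KO 3, against 1013, 1629, 1764 and 1073 CPM in WT 1 to WT 4 (log2 fold change 0.54, SE 0.25, adjusted p = 0.251 by edgeR). The log2 fold change was 0.44 for Adk, 0.48 for Pcx, 0.39 for Pygl and 0.67 for Slc25a35. As the 5 were picked by likeness to the mean profile, similar fold changes follow from the choice.

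**Figure D2:**
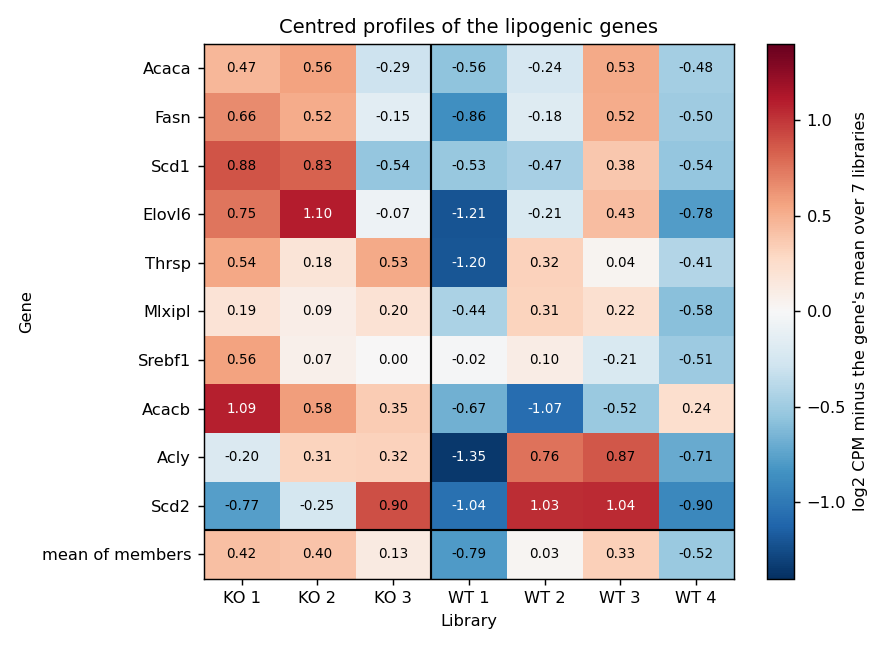
Log2 CPM of each gene minus its own mean over the 7 libraries (colour and printed number, red above and blue below the mean), with KO libraries left of the line and WT libraries right of it. Acaca, Fasn, Scd1 and Elovl6 are high in KO 1, KO 2 and WT 3, while Acly and Scd2 are high in WT 2 and WT 3.

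Ratios of related genes within a library need no scaling between libraries, and 6 such pairs were compared. An exact two-sided permutation test over the 35 splits of 7 libraries can give no p below 0.0286, and p-values were adjusted over the 6 pairs. The log2 ratio of Srebf1 to Srebf2, which encodes the cholesterol-regulating SREBP2, was 3.84, 3.14 and 2.73 in KO 1 to KO 3, against 2.94, 2.49, 2.05 and 2.08 in WT 1 to WT 4. Only WT 1 lay within the KO range. The mean was 3.24 ± 0.56 in KO (SD, n = 3) and 2.39 ± 0.42 in WT (SD, n = 4), a difference of 0.85 with an exact permutation p of 0.0857 (adjusted 0.275). Srebf2 itself was at 68.93 ± 13.5 CPM in KO (SD, n = 3) and 96.47 ± 19.2 CPM in WT (SD, n = 4), with a log2 fold change of -0.48 (adjusted p = 0.221 by edgeR).

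The log2 ratio of Thrsp to Mid1ip1, its paralog and an activator of acetyl-CoA carboxylase, was 4.93, 5.62 and 4.89 in KO 1 to KO 3, against 4.16, 3.40, 3.90 and 5.25 in WT 1 to WT 4. The difference was 0.97, with WT 4 inside the KO range (exact permutation p = 0.114, adjusted 0.275). The ratio of Acacb to Acaca was 0.393, 0.260 and 0.400 in KO 1 to KO 3, against 0.236, 0.145, 0.124 and 0.422 in WT 1 to WT 4. Its log2 difference was 0.74 (exact permutation p = 0.171, adjusted 0.275), and WT 4 had the highest ratio of all. Without WT 4 the log2 difference was 1.09. Acacb did not overlap between genotypes as a level and did overlap as a ratio to Acaca.

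The ratio of Scd1 to Scd2 was 158, 106 and 18.6 in KO 1 to KO 3, against 71.9, 17.8, 32.0 and 64.7 in WT 1 to WT 4. It varied by more within each genotype than between them, with a log2 difference of 0.75 (exact permutation p = 0.486). Without KO 3 that difference was 1.69, and without KO 1 it was 0.14. Elovl6 to Elovl5, an elongase of polyunsaturated fatty acids, differed by 0.74 (exact permutation p = 0.2), and Mlxipl to Mlxip, the ChREBP paralog, by 0.49 (exact permutation p = 0.229). The adjusted p was 0.275 for both of these pairs.

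**Figure D3:**
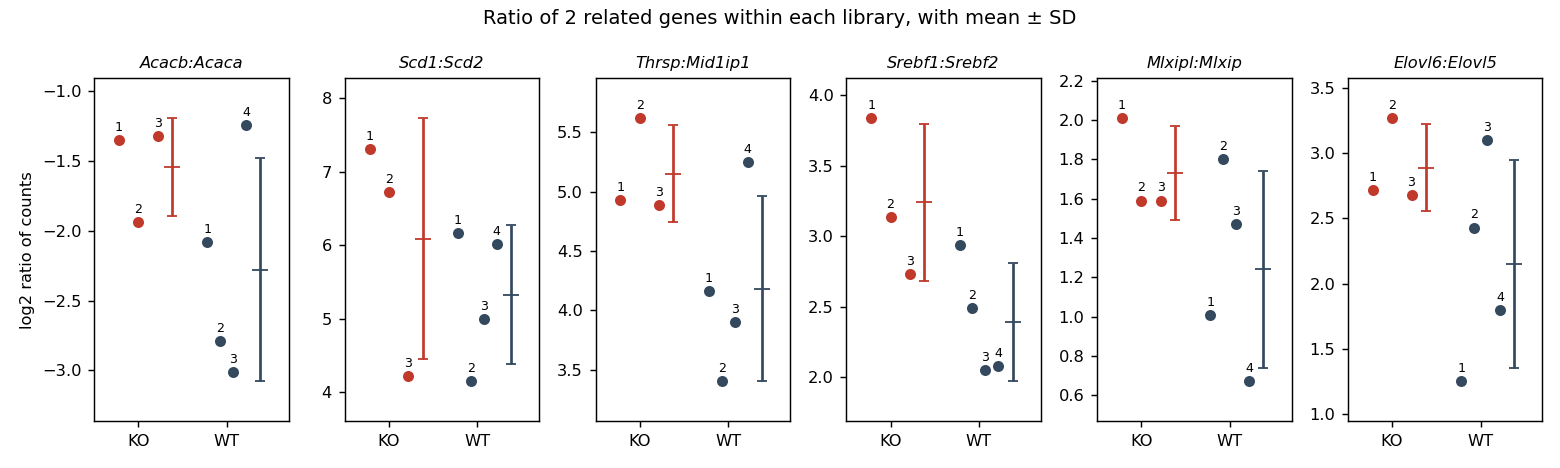
Log2 ratio of the counts of 2 related genes within each library (vertical axes differ between panels), with KO libraries in red on the left, WT libraries dark on the right, replicate numbers above the points and the mean ± SD beside each group. In every panel at least 1 WT library lies inside or above the KO range, as WT 1 does for Srebf1 to Srebf2 at 2.94.

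Genes that feed carbon and reducing power into the pathway had mostly higher values in KO. Of 13 tested genes of citrate, acetyl-CoA and NADPH supply, 13 had a log2 fold change above 0 (median 0.59), against 46.9% of all genes. At an unadjusted p under 0.05, 6 were higher and 0 lower, against 12.3% and 9.51% of all genes, and 0 passed the adjusted threshold of edgeR. With total counts alone 12 of 13 were above 0 (median 0.26), and 3 were higher and 0 lower at that p, against 694 and 4871 of all 19185 genes. With adipocyte marker scaling the median was -0.10, with 4 of 13 above 0 and 0 past that p in either direction. Of all 19185 genes, 88 were higher and 7719 lower at that p with this scaling, and the median was -0.66. The lists here were chosen with earlier results of these data known. Slc25a1, the citrate carrier that exports citrate to Acly, had 2041, 1688 and 1619 CPM in KO 1 to KO 3, against 466.3, 656.9, 718.0 and 1057 CPM in WT 1 to WT 4. Its groups did not overlap (log2 fold change 1.3, SE 0.28, adjusted p = 0.0957 by edgeR). The groups did not overlap either for Taldo1, of the pentose phosphate pathway (log2 fold change 0.94, SE 0.20, adjusted p = 0.0956), or for Cs, citrate synthase (log2 fold change 0.85, SE 0.21, adjusted p = 0.098). Aacs, which activates acetoacetate for lipid synthesis, had a log2 fold change of 0.88 (SE 0.28, adjusted p = 0.138 by edgeR), also without overlap. These 4 genes were named for their small p. Of all 13, 5 had KO libraries wholly above WT libraries and 0 wholly below, against 11.4% and 8.92% of all genes. Me1, malic enzyme and a source of NADPH, averaged 2912 ± 442 CPM in KO (SD, n = 3) and 1939 ± 933 CPM in WT (SD, n = 4), and its groups overlapped.

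Beside Elovl6 and the Scd pair, 15 other genes of elongation and desaturation were tested, of which 5 were higher and 0 lower at an unadjusted p under 0.05, against 12.3% and 9.51% of all genes, with a median of 0.52. With total counts alone 4 were higher and 1 was lower, with a median of 0.17, against 694 and 4871 of all 19185 genes. With adipocyte marker scaling 1 was higher and 4 were lower, with a median of -0.20, against 88 and 7719 of all 19185 genes. Among the 15 were the other steps of the elongation cycle. Hsd17b12, the ketoacyl-CoA reductase, averaged 554.4 ± 177 CPM in KO (SD, n = 3) and 243.4 ± 60.2 CPM in WT (SD, n = 4), and its log2 fold change was 1.19 (SE 0.26, adjusted p = 0.0967 by edgeR). The log2 fold change was 1.02 for Hacd2, a dehydratase (SE 0.17, adjusted p = 0.0956), and 0.98 for Tecr, the enoyl-CoA reductase (SE 0.22, adjusted p = 0.0967), all 3 genes without overlap. These genes were named for their small p. Of all 15, 4 had KO libraries wholly above WT libraries and 0 wholly below, against 11.4% and 8.92% of all genes. Elovl4, an elongase of very long chains, had a log2 fold change of 2.85 (SE 0.83, adjusted p = 0.122 by edgeR) at a very low level, with a mean of 0.69 CPM in KO and 0.09 CPM in WT, so its fold rests on few counts. The polyunsaturated fatty acid desaturases Fads1 and Fads2 had log2 fold changes of -0.19 and -0.18, with edgeR adjusted p-values of 0.73 and 0.732.

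Of 16 tested genes of SREBP processing and partners, 2 were higher and 2 lower at an unadjusted p under 0.05, with a median of 0.10, and these counts were close to the 12.3% and 9.51% of all genes. With total counts alone 1 was higher and 4 were lower (median -0.22), against 694 and 4871 of all 19185 genes. With adipocyte marker scaling 0 were higher and 10 lower (median -0.54), against 88 and 7719 of all genes. Lpin1, a phosphatidate phosphatase that also acts on SREBP1, averaged 585.5 ± 16.6 CPM in KO (SD, n = 3) and 335.2 ± 55.1 CPM in WT (SD, n = 4), and its log2 fold change was 0.80 (SE 0.17, adjusted p = 0.0956 by edgeR). Nr1h3, which encodes the oxysterol receptor LXR-alpha that raises Srebf1 transcription, had a log2 fold change of 0.66 (SE 0.18, adjusted p = 0.111). The lower pair was Srebf2 and Nfya, a subunit of the factor that binds the NF-Y box (log2 fold change -0.34, SE 0.13, adjusted p = 0.195 by edgeR). Scap, the escort of SREBP, had a log2 fold change of 0.09 (adjusted p = 0.695 by edgeR).

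Of 7 tested ChREBP partners and targets, 2 were higher and 0 lower at an unadjusted p under 0.05, against 12.3% and 9.51% of all genes, with a median of 0.16. With total counts alone 1 was higher and 2 were lower (median -0.14), against 694 and 4871 of all 19185 genes. With adipocyte marker scaling 0 were higher and 2 lower (median -0.45), against 88 and 7719 of all genes. The log2 fold change was 1.13 for Gpd1, which makes the glycerol backbone of triglycerides (SE 0.27, adjusted p = 0.0967 by edgeR), and 0.58 for Khk, ketohexokinase (SE 0.20, adjusted p = 0.158). Arrdc4, a glucose-induced arrestin (log2 fold change -0.39, adjusted p = 0.33), and Slc2a4, the insulin-responsive glucose transporter (log2 fold change 0.37, adjusted p = 0.448), overlapped between groups. Of 10 tested regulators of acetyl-CoA carboxylase and malonyl-CoA, 1 was higher and 0 lower, close to the 12.3% and 9.51% of all genes, with a median of -0.04, that of all genes. With total counts alone 1 was higher and 3 were lower (median -0.35), against 694 and 4871 of all genes. With adipocyte marker scaling 0 were higher and 5 lower (median -0.66), against 88 and 7719 of all genes. Both medians were again those of all genes. The higher gene with TMM was Mlycd, malonyl-CoA decarboxylase, which removes malonyl-CoA. Mlycd averaged 71.25 ± 25.1 CPM in KO (SD, n = 3) and 33.94 ± 7.92 CPM in WT (SD, n = 4), and its log2 fold change was 1.07 (SE 0.26, adjusted p = 0.1 by edgeR). Prkag1, a subunit of the AMP-activated kinase that inhibits the carboxylases, had a log2 fold change of 0.29 (adjusted p = 0.245), Stk11, the kinase that activates it, 0.21 (adjusted p = 0.363), and Hlcs, which attaches biotin to the carboxylases, -0.39 (adjusted p = 0.27).

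The list for the separate fatty acid synthesis system of mitochondria, which makes the precursor of lipoic acid, had higher values in KO libraries. It includes the lipoic acid genes Lias, Lipt1 and Lipt2. All 9 tested genes had KO libraries wholly above WT libraries, against 11.4% of all genes, 8 were higher at an unadjusted p under 0.05, against 12.3%, and the median was 0.82. Oxsm had the smallest log2 fold change of the 9, 0.32 (SE 0.14, unadjusted p = 0.0518 by edgeR). With edgeR 0 of 9 passed the adjusted threshold. With total counts alone 5 of 9 were higher and 0 lower at an unadjusted p under 0.05 (median 0.49), against 694 and 4871 of all 19185 genes. With adipocyte marker scaling 7 of 9 were above 0 (median 0.13). That scaling gave 0 of 9 with an unadjusted p under 0.05, against 88 higher and 7719 lower of all 19185 genes. Lias, lipoic acid synthetase, averaged 59.91 ± 6.84 CPM in KO (SD, n = 3) and 36.55 ± 2.13 CPM in WT (SD, n = 4), and its log2 fold change was 0.71 (SE 0.13, adjusted p = 0.0956 by edgeR). The log2 fold change was 0.82 for Cbr4, a reductase subunit (SE 0.16), 1.03 for Lipt1, a lipoyl transferase (SE 0.21), and 0.98 for Ndufab1, the acyl carrier protein that is also a complex I subunit (SE 0.21), with edgeR adjusted p-values of 0.0956 to 0.0957. Whether this list differs from the 10 cytosolic lipogenic genes was not tested.

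**Figure D4:**
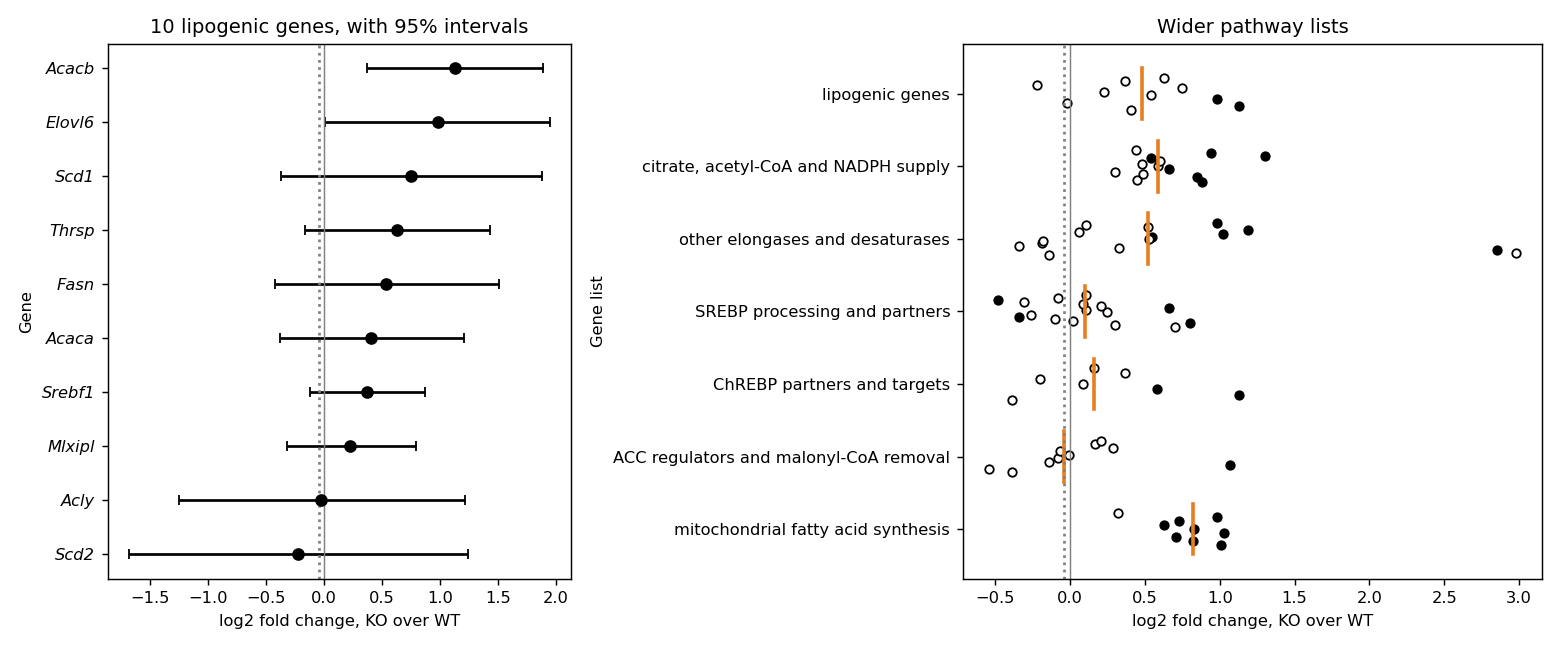
Left, fold change (log2, KO over WT) of the 10 genes with approximate 95% intervals worked out from the F statistic of edgeR. Right, every tested gene of the 7 lists, filled where the unadjusted p is under 0.05, with the median of each list as an orange bar. In both panels the dotted line is the median of all 19185 genes, -0.04, and the intervals of 8 of the 10 genes include 0.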

How the data were processed

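Poly(A) RNA from inguinal fat was sequenced with a stranded kit, per the labels' protocols. The authors deposited raw read counts per Entrez gene for 7 libraries. Per the submitters' processing notes, bcl2fastq 2.20.0, Trimmomatic, HISAT2 2.1.0, StringTie 1.3.4d and DESeq2 were used with mm10. For the annotation, the counting rule and the use of strand the sources used here say nothing, so reads of overlapping genes and close paralogs cannot be told apart. RefSeq symbols matched 29444 of 29517 identifiers. With edgeR 4.0.16 (R 4.3.3), low genes were removed (filterByExpr, minimum count 10), libraries were scaled by TMM and genotypes were compared by the quasi-likelihood test with Benjamini-Hochberg adjustment over all 19185 genes at 0.05. The script was tested on simulated counts. Alternatives were DESeq2 1.42.0, limma-voom (limma 3.58.1), other scalings and filters, a replicate block and each library left out. Ratios had 0.5 counts added. The genes named were Tm4sf5, the 10 members, the ratio partners, up to 4 genes of each wider list by smallest p and the 5 nearest profiles, and others were named after their values were seen. The members and lists were chosen with earlier results of these data known. The design text calls the replicates biological and speaks of 3 per condition, while the labels list 3 KO and 4 WT samples, and all were used. Intervals cover the spread between these libraries.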

Additional observations from a re-analysis of the deposited data

Results flagged for a closer look

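In the 4 WT libraries, 52 values were tested for a library far from the other 3 by Dixon's ratio, a test that flags about 1 in 20 groups by chance. Scd1 was 47290 CPM in WT 3, against 25060 to 26180 CPM in the other WT libraries. Scd3 was 75.19 CPM in WT 3, against 31.52 to 38.13 CPM in the others. Aacs was 203.4 CPM in WT 1, against 306.9 to 321.0 CPM in the others. Stk11 was 89.81 CPM in WT 3, against 101.1 to 102.4 CPM in the others.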

How the results depend on the processing

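The count of genes past an adjusted p of 0.05 was 0 with edgeR, 1864 with DESeq2, 116 scaled to white adipocyte markers, and 1 with total counts alone, limma-voom or the replicate block. Among the 10 lipogenic genes it was 0, and 1 with DESeq2. The 2 genes higher at an unadjusted p under 0.05 became 1 with total counts alone, with the replicate block and without WT 2 and WT 4 together, 0 with adipocyte marker scaling, and 1 to 3 with 1 library left out. Of all 19185 genes, 2363 were higher at that p with TMM, 694 with total counts alone and 88 with adipocyte marker scaling. The all-gene count was 1673 of 18770 with the replicate block and 1636 of 19133 without WT 2 and WT 4 together. With 1 library left out it ran from 1383 of 19924 (KO 1) to 2419 of 19855 (KO 3). The 1 gene without overlap became 0 with total counts alone or adipocyte marker scaling, 3 without WT 2 and WT 4 together or without KO 3 and WT 4 together, and 1 to 3 with 1 library left out. The share of all genes with KO wholly above WT was taken only with TMM and all libraries, at 11.4%, so these counts have no share beside them. With adipocyte marker scaling the log2 fold change was -0.27 for Acaca, -0.16 for Fasn, -0.30 for Srebf1, -0.42 for Mlxipl and -0.05 for Thrsp, and with total counts alone it was -0.09 for Mlxipl. Those scalings moved the median of all genes to -0.66 and -0.35, and the median of the 10 genes stood 0.44 and 0.49 above it, against 0.52 with TMM. Acly was 0.25 with limma-voom, 0.04 with the replicate block and 0.01 without WT 2 and WT 4 together. With 1 library left out Acly ran from -0.30 to 0.32 and Scd2 from -0.84 to 0.10, and the other 8 kept their sign. The 6 ratios kept their sign under every alternative run, the replicate block included, where Acacb to Acaca was 1.09. The edgeR or limma adjusted p of Acacb ran from 0.082 to 0.39 over the alternatives other than DESeq2. Same-numbered KO and WT libraries had deviations correlated at 0.22, -0.17 and -0.02. The labels do not say that the numbers pair animals, and correlations over so few libraries cannot decide it. Leaving out WT 2 and WT 4, or KO 3 and WT 4, was chosen after seeing the data. The causes of these shifts were not tested, and among the genes named, depth limits Tm4sf5 and Elovl4.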

Other observations

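Scd3 and Scd4, further desaturase genes of the same cluster, were low in this fat, with means of 64.67 ± 28.2 CPM for Scd3 in KO (SD, n = 3) and 45.24 ± 20.2 CPM in WT (SD, n = 4), and of 3.72 CPM for Scd4 in KO and 3.43 CPM in WT. Scd3 counts were a nearly fixed share of Scd1 counts in every library. That share was 0.123%, 0.124% and 0.129% in KO 1 to KO 3, and 0.125%, 0.138%, 0.159% and 0.152% in WT 1 to WT 4, while Scd1 itself had between 1200401 and 3054316 counts. The pattern was noticed after the values were seen, and the part of reads shared between these paralogs was not tested.

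Mid1ip1 varied more among WT libraries than any of the 10 genes, with 43.27, 210.4, 123.0 and 35.33 CPM in WT 1 to WT 4, a 5.96-fold range. KO 1 to KO 3 had 85.01, 41.05 and 86.90 CPM. Acss2, which makes acetyl-CoA from acetate, had 572.3, 766.2 and 871.1 CPM in KO 1 to KO 3, against 187.8, 734.1, 917.4 and 319.8 CPM in WT 1 to WT 4. Both had WT 2 and WT 3 high and WT 1 and WT 4 low, as Acly and Scd2 did. Insig1, which retains SREBP in the endoplasmic reticulum, had 825.4, 489.4 and 619.0 CPM in KO 1 to KO 3, against 208.5, 570.0, 468.1 and 336.5 CPM in WT 1 to WT 4. These genes were picked after their values were seen.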
